A study of Mus musculus with 6 samples.

Results

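The genes described are 8 that encode structural proteins of the myelin sheath, Mbp, Mog, Mag, Mobp, Cnp, Cldn11, Mal and Opalin. They were chosen by symbol, and all 8 of them are among the 19465 genes of the files in each of 6 sections. The sections are formalin-fixed, paraffin-embedded coronal brain sections of untreated male C57BL/6J mice, 2 biological replicates each at postnatal day 21 (P21), in adults of 12 to 15 weeks and in aged mice of 28 months. RNA was measured with the Visium assay, in which gene-specific probe pairs are hybridised to the tissue and counted as unique molecular identifiers (UMIs) in barcoded spots. P21 mice were bred from wild-type parents, and per the labels adult and aged mice came from different sources. Mbp lies on chromosome 18. Sections of P21 and adult mice lay directly on v1 slides, whereas aged sections were transferred to v2 slides with the CytAssist instrument and counted with a later version of Space Ranger, and the study's methods also name a changed probe design for them. Age, source of the mice, slide version, probes and software therefore cannot be told apart in aged vs. adult. In P21 vs. adult, age cannot be told apart from how the mice were obtained. The share of brain regions in the sections also differed between these ages, as given below.

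Myelin is the multilayered membrane that oligodendrocytes wrap around axons in the central nervous system, and white matter is the tissue in which such axons run in bundles. Myelination in the mouse brain is most active in the first postnatal weeks, and the transcripts of myelin proteins are among the most abundant of the oligodendrocyte. Mbp joins the cytoplasmic faces of the compacted membrane, and some of its mRNA is carried out into the processes and translated there. Mobp is also a small basic protein of the cytoplasmic side. Cnp keeps cytoplasmic channels open in the sheath, Mag lies on the membrane that faces the axon, and Mog lies on the outermost surface. Cldn11 builds the tight junctions between myelin layers, Mal is a proteolipid of lipid-rich membrane that serves transport to the sheath, and Opalin is a transmembrane glycoprotein found in the central nervous system.

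By the GENCODE vM21 annotation of GRCm38, the build of the files, the genes lie apart from each other in the genome. Apart from Mbp they are Mog (chr17:37010743-37023398, minus strand), Mag (chr7:30899176-30914873, minus strand), Mobp (chr9:120149707-120181484, plus strand), Cnp (chr11:100574904-100591729, plus strand), Cldn11 (chr3:31149920-31164324, plus strand), Mal (chr2:127633226-127656695, minus strand) and Opalin (chr19:41061710-41077113, minus strand). The RefSeq promoter table for GRCm38.p6 held 7 of the 8 genes, all but Mbp. The 250 bases before the annotated start were searched on both strands for short motifs of factors that act in oligodendrocytes, ACAAAG and ACAATG for the SOX family and CTGGCAC and CTGGTAC for MYRF. The 7 genes have 9 such windows, 3 of them of Mag, and a gene is counted if any of its windows holds the motif, whereas the share over all promoters is per window. Of the 3 windows of Mag, 1 held no motif. ACAAAG occurred before 4 of the 7 genes, Mag, Mobp, Cnp and Opalin, and in 16.5% of all 32851 promoters of that length. CTGGCAC occurred before Mag and Cnp and in 4.19% of all promoters, and CTGGTAC before Mog and in 1.83%. ACAATG occurred before none of the 7 and in 10.7% of all promoters. Of general promoter motifs, TATAAA occurred before none of the 7 and in 12.4% of all promoters, and GGGCGG before Cnp and in 32.7%. A match is a description of the letters and not a binding site. The sequences below belong to Opalin, Cldn11 and Mobp. By the criteria given below, Opalin was the gene called lower in aged white matter and Cldn11 the gene called higher. Of all genes tested there, 14.4% were called lower and 12.4% higher, so this count is near the background. The call of Cldn11 was lost in some fits with a section left out. Mobp, Mal and Mog were also above adult levels there without reaching the fold required. The promoter of Mobp held ACAAAG in either direction 6 times. They are written 5′ to 3′ on the strand of the gene, with the searched motifs in capitals. For Opalin the window is chr19:41077114-41077363, for Cldn11 chr3:31149670-31149919, which held none of the motifs, and for Mobp the first 150 bases of the window, chr9:120149492-120149641.
Opalin: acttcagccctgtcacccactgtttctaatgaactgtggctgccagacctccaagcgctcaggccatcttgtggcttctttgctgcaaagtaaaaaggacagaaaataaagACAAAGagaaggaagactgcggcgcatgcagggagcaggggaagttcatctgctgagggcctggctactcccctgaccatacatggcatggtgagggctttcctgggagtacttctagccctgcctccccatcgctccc
Cldn11: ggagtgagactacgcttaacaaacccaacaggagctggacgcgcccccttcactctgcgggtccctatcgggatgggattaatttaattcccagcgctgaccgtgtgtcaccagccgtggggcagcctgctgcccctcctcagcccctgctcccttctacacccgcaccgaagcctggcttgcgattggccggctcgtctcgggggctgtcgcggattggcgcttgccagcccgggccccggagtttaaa
Mobp: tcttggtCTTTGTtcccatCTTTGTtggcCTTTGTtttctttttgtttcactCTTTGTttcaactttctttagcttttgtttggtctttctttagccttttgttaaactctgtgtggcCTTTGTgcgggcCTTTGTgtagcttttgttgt

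The spots kept numbered 2917 to 3679 per section, with 42422997 to 106783660 UMIs per section and a median of 12074.5 to 25535 UMIs per spot. Spots were grouped anew into regions by clustering without 112 genes of the lists used here, the 8 among them. Regions were named from marker panels that contain none of the 8 genes. The gray matter zones were the cortex (CTX, with clusters led by Trbc2, Hs3st2 and Ccn2 and by Adam33, Gm765 and Lamp5), hippocampus (HP, led by C1ql2, Dsp and Cabp7 and by Fibcd1, Spink8 and Gpr161), thalamus (TH, led by Prkcd, Abhd12b and Tnnt1), hypothalamus (HY, led by Hcrt, Pmch and Avp and by Ccdc42, Baiap3 and Cartpt) and striatum (STR, led by Penk, Adora2a and Rgs9). White matter was the cluster of fiber tracts (FT), led by C4b, Klk6 and Apod, with 2160 spots in all and 312 to 419 per section. A spot can hold several cells, so FT spots also contain cells other than oligodendrocytes. Levels are given in CPM (counts per 1e+06 counts), the share of a gene in all UMIs of the section or region. They are compared within a gene only, since probes differ between genes, and between aged and the other sections the probes of 1 gene may differ too. The lowest sum behind a level in the 6 regions was 80 UMIs, for Opalin in the HP of aged section 1.

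**Figure D1:**
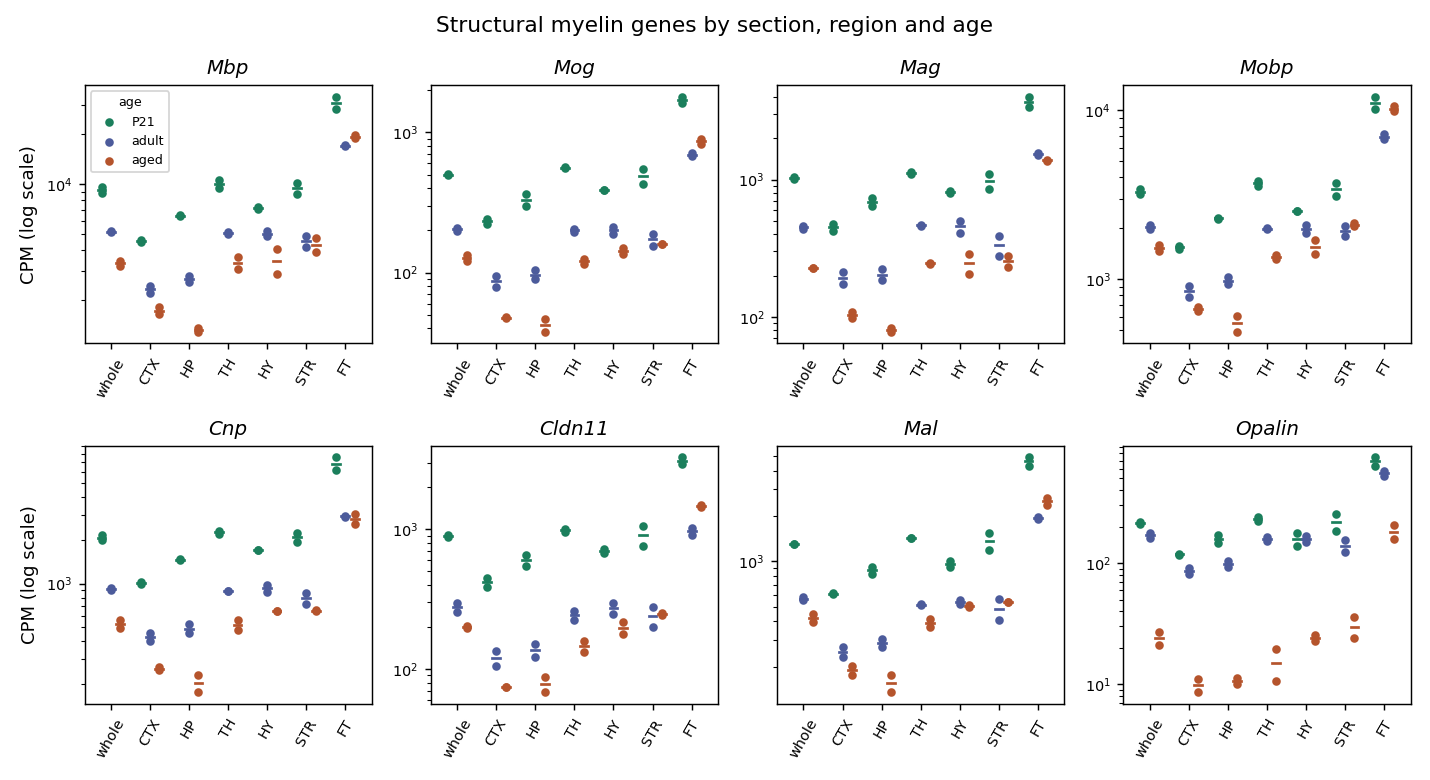
CPM (log scale) of each gene in whole sections and in 6 regions. Each point is a section, each short line the mean of 2 sections, and colours give the age. P21 points lie above adult points in nearly every area, and aged points lie below adult points in the CTX, HP, TH and HY but near or above them in the FT, except for Opalin.

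To see where the transcripts lie, the FT was compared with each gray matter zone within a section, as the log2 ratio of CPM with a pseudocount of 1 CPM. All 8 genes were higher in the FT than in every zone in 6 of 6 sections, which makes 40 of 40 ratios of gene and zone. The FT was named from a panel of oligodendrocyte genes, among them Fa2h and Tspan2, whose profiles are close to those of the 8, so the direction was largely set by the naming and is given as a description, with no test. Of 11338 genes detected in at least 10% of spots, 8.74% were above every zone in all sections. Ratios ranged from 1.33 to 4.42 on the log2 scale. For Mbp the log2 ratio of FT to CTX was 2.68 and 2.89 at P21, reached 2.82 and 2.96 in the adult and was 3.54 and 3.46 in the aged brain. The ratio was therefore higher in both aged sections than in any younger section. Over STR, a zone crossed by fiber bundles, the log2 ratio of Mbp was 1.49 and 1.95 at P21, reached 1.83 and 2.02 in the adult and was 2.28 and 2.07 in the aged brain. The order of the zones by the level of Mbp in adults ran from CTX over HP to STR, HY and TH, and neighbours in that order overlapped between sections for STR and HY and for HY and TH.

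The deposited Moran's I score, which measures how far neighbouring spots resemble each other in a gene, placed the genes near the top of every section. For Mbp the score ran from 0.745 to 0.839 over 6 sections, with ranks from 1 to 6 among 17185 to 19363 genes. Mobp ranked 3 to 10. Opalin had the lowest scores of the 8, from 0.352 to 0.516, and ranked 122 to 554. Its 2 worst ranks, 554 and 424, were those of the aged sections, although its scores there, 0.444 and 0.516, were above those of the younger sections. The same held for each of the 8 genes and was not particular to Opalin. Mog, for example, ranked 140 and 148 in the aged sections, with scores of 0.631 and 0.641.

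To ask how the genes differ between the growing and the adult brain, P21 was compared with adult by edgeR's quasi-likelihood test with Benjamini-Hochberg adjustment, with calls made where the adjusted p was under 0.05 and the level changed by more than 1.5 times. SE stands for the standard error of a log2 fold change. In whole sections 7 of 8 genes were called higher at P21 and 0 lower, where 3.17% of 11153 genes tested were called higher and 1.95% lower. Their median log2 fold change was 1.19, beside −0.02 over all genes. In bulk sums of a section, fewer cells of a type and less RNA per cell cannot be told apart. The HY held 19.8% and 18.1% of spots at P21 and 12.7% and 13.1% in the adult. The HP held 9.20% and 9.23% at P21 and 11.9% and 12.9% in the adult. The part of such differences in the levels of whole sections was not tested.

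Cldn11 changed most among the 8. It was at 917 and 882 CPM at P21, 296 and 257 CPM in the adult and 204 and 196 CPM in the aged brain in whole sections, so both P21 sections stood far above all others. Its log2 fold change in P21 vs. adult was 1.70 (SE 0.08, adjusted p = 1.63e-07). Mog was at 503 and 494 CPM at P21, 209 and 198 CPM in the adult and 133 and 121 CPM in the aged brain, with a log2 fold change of 1.29 (SE 0.07, adjusted p = 5.20e-07). Mag was at 1014 and 1050.4 CPM at P21, 459 and 440.2 CPM in the adult and 226 and 228 CPM in the aged brain, and its log2 fold change was 1.19 (SE 0.06, adjusted p = 3.33e-07). For all 3, the 3 ages did not overlap and fell in the order P21, adult, aged. The same order without overlap held in whole sections for the rest of the 8. The share of all genes that separate in this way was not computed, so this and similar separations below have no background beside them.

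Mal was at 1306 and 1309.9 CPM at P21, 576 and 555 CPM in the adult and 450.0 and 397 CPM in the aged brain, and Cnp at 2011 and 2164 CPM at P21, 932 and 898 CPM in the adult and 559.7 and 488 CPM in the aged brain. Their log2 fold changes in P21 vs. adult were 1.20 and 1.19. The transcripts of the basic proteins of the cytoplasmic face, Mbp and Mobp, changed less than those of the genes above. Mbp was at 8903 and 9639.7 CPM at P21, 5196 and 5117 CPM in the adult and 3215 and 3439 CPM in the aged brain, which gives a log2 fold change of 0.84 (SE 0.06, adjusted p = 4.21e-06). Mobp was at 3176 and 3406 CPM at P21, 2085 and 1989 CPM in the adult and 1594 and 1475 CPM in the aged brain, with 0.69 (SE 0.07, adjusted p = 3.64e-05). In each of these 4 genes the lower P21 section was above the higher adult section, by more than the sections of an age differed.

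Opalin departed from the others. It was at 217 and 208 CPM at P21, 177 and 161 CPM in the adult and 21.3 and 26.9 CPM in the aged brain in whole sections. Its P21 sections were above the adult sections, but the log2 fold change of 0.33 (SE 0.09, adjusted p = 0.0168) did not reach 1.5 times, and it was the gene of the 8 not called in P21 vs. adult.

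In the 6 regions taken singly, 42 of 48 pairs of gene and region were called higher at P21 and 0 lower, against a background of 3.84% of all gene and region tests higher and 2.33% lower. The 42 became 36 when each section was clustered alone and 38 to 42 when a section was left out. All 8 genes were called higher in the HP and STR. In the FT, 7 of 8 were called, where 5.30% of genes were called higher and 4.05% lower. Cldn11 in the FT was at 2944 and 3266 CPM at P21, 1016 and 917 CPM in the adult and 1499 and 1433 CPM in the aged brain. Its log2 fold change there, 1.76 (SE 0.10, adjusted p = 5.54e-10), was close to that of whole sections. The 6 pairs not called were Opalin in the CTX, TH, HY and FT and Mbp and Mobp in the HY. In the HY Opalin was at 176 and 138 CPM at P21, 168 and 149 CPM in the adult and 22.9 and 25.7 CPM in the aged brain, so the P21 sections lay on either side of the adult ones, with a log2 fold change of −0.03 (SE 0.13, adjusted p = 0.923). In the HP, by contrast, Mag was at 739 and 637 CPM at P21, 223 and 185 CPM in the adult and 83.1 and 78.3 CPM in the aged brain. Both P21 sections were far above the adult ones, with a log2 fold change of 1.74 (SE 0.11, adjusted p = 3.17e-06).

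**Figure D2:**
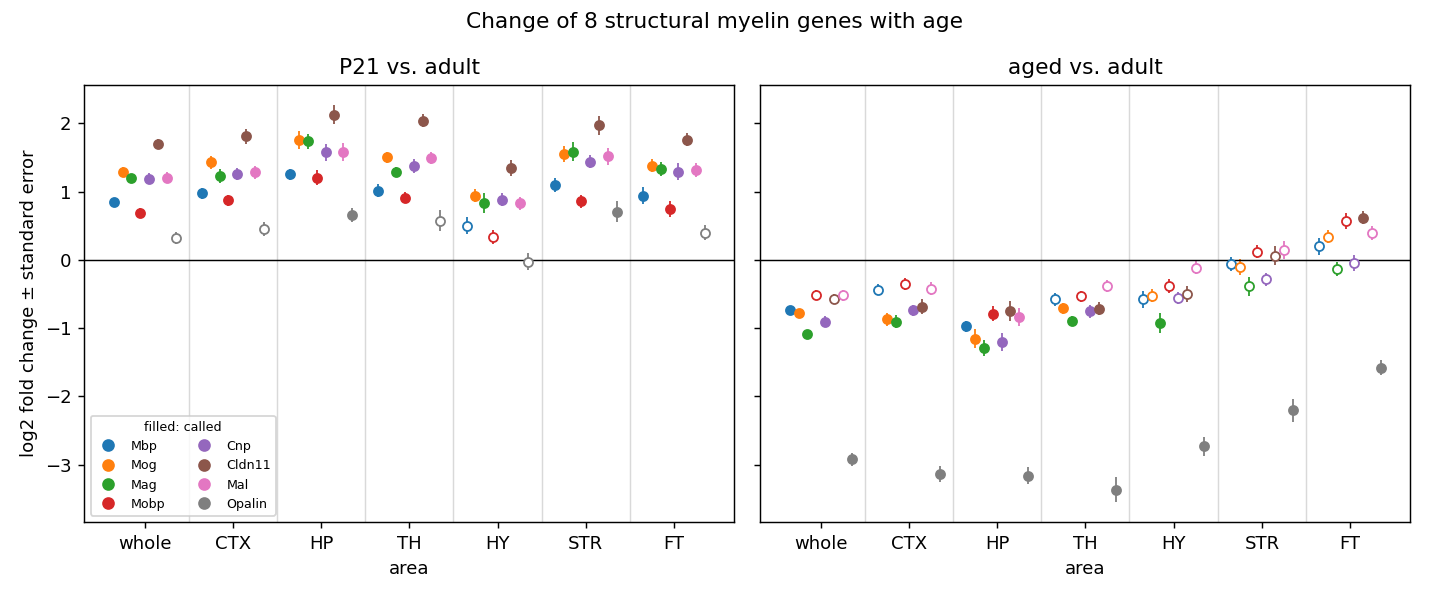
Log2 fold changes of the 8 genes against adult, with standard errors, in whole sections and 6 regions, P21 on the left and aged on the right. Filled points passed both criteria of a call. In P21 vs. adult all but Opalin in the HY lie above 0, while in aged vs. adult the points rise from the HP to the FT and Opalin lies below all others.

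Whether the change differed between regions was examined in 1 model over all regions, with sections as blocks and a joint test of the 5 terms of region and age. In P21 vs. adult these terms passed for 8 of 8 genes, with adjusted p from 0.00593 to 0.0298, where 13.9% of 11338 genes passed. None of the 40 single contrasts of the FT with a zone passed. The differences, FT minus zone in log2 fold change, ran from 0.40 to 0.50 against the HY and from −0.44 to −0.23 against the HP. The count depended on single sections and on the clustering. It fell to 0 of 8 genes when each section was clustered alone, where 570 of 11338 genes passed, against 1571 in the main setting. It fell as far without either adult section and less far without either P21 section, fits that leave 1 section in a group. The count over all genes fell in each of these fits too, so the loss is not particular to the 8.

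The aged brain was compared with the adult in the same way. In whole sections 5 of 8 genes were called lower in aged mice and 0 higher, where 5.27% of 11315 genes tested were called lower and 3.72% higher. All 8 were below 0 on the log2 scale with an adjusted p under 0.05, and their median was −0.76, beside −0.10 over all genes. Opalin fell most, by 2.92 on the log2 scale (SE 0.10, adjusted p = 1.10e-08), and its aged sections at 21.3 and 26.9 CPM stood far below the other 4. A shift of 1 gene of this kind cannot be told apart from a change of its probes. Mag fell by 1.09, Cnp by 0.91, Mog by 0.78 and Mbp by 0.74. Cldn11, Mobp and Mal had log2 fold changes of −0.57, −0.52 and −0.52, short of 1.5 times. With a section left out, they ran from −0.68 to −0.49 for Cldn11, −0.59 to −0.43 for Mobp and −0.64 to −0.41 for Mal, on either side of that fold. Without TMM factors the median over all genes moved from −0.10 to 0.00 and the calls in whole sections from 421 higher and 596 lower to 683 and 322, while the count of the 8 genes called stayed at 5. Levels of whole sections also depend on how much of their UMIs came from the FT. This was 6109183 of 52499064 and 6065315 of 51236277 UMIs in the adult sections. In the aged sections it was a smaller part, 5009245 of 81997167 and 5397471 of 106783660. The part of this in the lower levels of whole sections was not tested.

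Taken by region, most of the lower calls lay in the HP, CTX and TH. Over the 6 regions, 22 of 48 pairs of gene and region were called lower in aged mice and 1 higher, against 7.18% of all gene and region tests lower and 7.62% higher. By region, 8 genes were called lower in the HP, 5 each in the CTX and TH, 2 in the HY and 1 each in the STR and FT. The median log2 fold change of the 8 genes was −1.06 for HP, −0.72 for CTX, −0.71 for TH, −0.54 for HY, −0.09 for STR and 0.27 for FT, where the median over all genes lay between −0.04 and 0.00.

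In the HP, Mbp was at 6509 and 6411 CPM at P21, 2775 and 2572 CPM in the adult and 1355 and 1280.1 CPM in the aged brain. The 3 ages did not overlap, and aged vs. adult gave a log2 fold change of −0.97 (SE 0.08, adjusted p = 1.96e-05). Cnp in the HP was at 1480.1 and 1452 CPM at P21, 521 and 451 CPM in the adult and 232 and 175 CPM in the aged brain, with a log2 fold change of −1.21 (SE 0.13, adjusted p = 6.83e-05). In the CTX, Mog was at 243 and 222 CPM at P21, 95.1 and 78.6 CPM in the adult and 47.8 and 47.8 CPM in the aged brain. Its aged sections were nearly equal and below all others, and its log2 fold change was −0.87 (SE 0.10, adjusted p = 1.75e-05). Mag in the CTX was at 477 and 419.6 CPM at P21, 211 and 175 CPM in the adult and 99 and 108 CPM in the aged brain, with −0.91 (SE 0.10, adjusted p = 1.35e-05). In the TH, the log2 fold changes of Cldn11, Mog, Cnp and Mag were −0.71, −0.71, −0.75 and −0.89. In the HY, Mag was called besides Opalin, with a log2 fold change of −0.92 (SE 0.15, adjusted p = 0.00261).

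In white matter, Opalin was the only gene of the 8 called lower. In the FT, 1 gene was called higher and 1 lower, where 12.4% of 11091 genes were called higher and 14.4% lower, a count near the background. Cldn11 was at 2944 and 3266 CPM at P21, 1016 and 917 CPM in the adult and 1499 and 1433 CPM in the aged brain in the FT, with both aged sections above both adult ones. Its log2 fold change was 0.62 (SE 0.10, adjusted p = 3.30e-05), just past 1.5 times, and it lost the call at 0.58 without P21 replicate 1, at 0.50 without adult replicate 2 and at 0.56 without aged replicate 1. Mobp was at 10119 and 12029 CPM at P21, 7186 and 6776 CPM in the adult and 10618 and 9836 CPM in the aged brain. Its aged sections lay on either side of the lower P21 section and above both adult ones, and its log2 fold change of 0.57 (SE 0.12, adjusted p = 4.59e-04) fell just short of the fold required. It was called higher, at 0.73, when only spots with neighbours all of their own region were used.

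Mal in the FT was at 4300.1 and 4884 CPM at P21, 1953 and 1918 CPM in the adult and 2638 and 2359 CPM in the aged brain, and Mog at 1625 and 1796 CPM at P21, 709.6 and 675 CPM in the adult and 896 and 832 CPM in the aged brain. In both, aged sections were above adult ones, with log2 fold changes of 0.39 (SE 0.10, adjusted p = 0.00388) and 0.34 (SE 0.09, adjusted p = 0.00471), under 1.5 times. FT spots with FT neighbours all round were 212 of 419 and 161 of 377 in aged sections, and 124 of 337 and 147 of 388 in adult ones. The log2 ratio of mean aged to mean adult level was 0.49 in such spots and 0.24 in other FT spots for Mal, and 0.48 and 0.15 for Mog. The part of this makeup in the FT levels was not tested. Mbp was at 28398 and 33878 CPM at P21, 17228 and 17015 CPM in the adult and 18948 and 19912 CPM in the aged brain, Cnp at 6128 and 7531 CPM at P21, 2967 and 2909 CPM in the adult and 3049.8 and 2583 CPM in the aged brain and Mag at 3339 and 4002 CPM at P21, 1552 and 1512 CPM in the adult and 1390.4 and 1372 CPM in the aged brain. Their log2 fold changes of 0.20, −0.04 and −0.13 had adjusted p of 0.183, 0.781 and 0.286. With a standard error of 0.10 to 0.12 on the log2 scale, small changes of these 3 genes cannot be seen with 2 sections per age.

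Opalin fell in white matter too. It was at 632 and 742 CPM at P21, 579 and 519.5 CPM in the adult and 158 and 206 CPM in the aged brain in the FT, and both aged sections were far below every other section. The log2 fold change there was −1.58 (SE 0.12, adjusted p = 3.90e-09). The fall was larger in each gray matter zone, with log2 fold changes of −2.20 for STR, −2.73 for HY, −3.14 for CTX, −3.16 for HP and −3.37 for TH. In the CTX it was at 118 and 117 CPM at P21, 91.1 and 81.8 CPM in the adult and 8.58 and 11.1 CPM in the aged brain. It was the gene of the 8 called lower in all 6 regions.

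The difference between white and gray matter was tested directly. In aged vs. adult the region-by-age terms passed for 8 of 8 genes, with adjusted p from 4.02e-08 to 9.94e-05, where 48.2% of 11338 genes passed. This count was 8 in every alternative computed. Since each section is a block in this model, anything that shifts a gene equally throughout a section drops out, but a factor of slide, probes or software that acts on regions unequally does not. Depth did shift unequally. The median UMIs per spot were 17808 and 15163.5 in adult FT and 11164 and 13093 in aged FT. In the CTX they were 18987 and 15563.5 in the adult and 31039.5 and 44896 in the aged brain. Aged medians were also higher in the HP and STR, and overlapped adult ones in the TH and HY. CPM are shares of such counts, and the part of depth in the contrasts was not tested. Of 40 single contrasts, 36 passed and all 40 had the FT above the zone, where 15.2% of all contrasts of gene and zone passed with the FT above. The difference in log2 fold change, FT minus zone, was 1.19 to 1.63 against the HP, 0.66 to 1.59 against the CTX, 0.74 to 1.83 against the TH, 0.52 to 1.20 against the HY and 0.28 to 0.68 against the STR. For Mog against the HP it was 1.52 (SE 0.15, adjusted p = 1.56e-08). For Mbp against the STR it was 0.32 (SE 0.15, adjusted p = 0.124), and the contrasts with the STR passed for 4 of 8 genes, Cldn11, Mobp, Mog and Opalin.

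**Figure D3:**
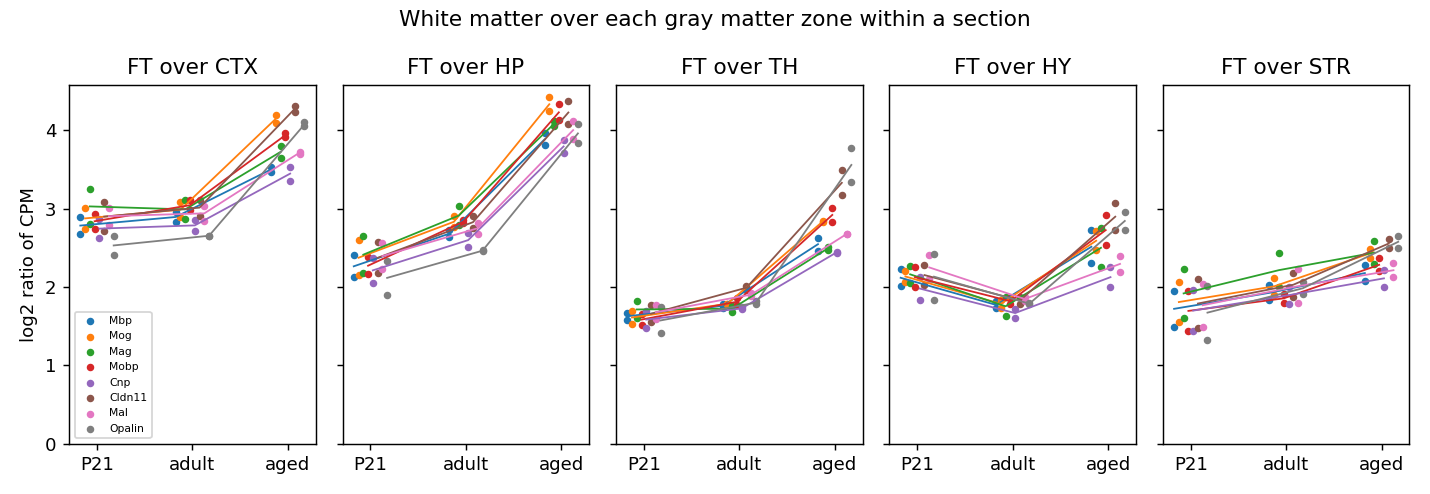
Log2 ratio of CPM in the FT to CPM in each gray matter zone, within each section. Points are sections, lines join the means of 2 sections per age, and colours give the gene. In the CTX, HP, TH and HY panels both aged sections lie above both adult sections for 8 of 8 genes, and in the STR panel for 5 of 8. The share of all genes that separate in this way was not computed.

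Distance from white matter was used to see how far the pattern reached into gray matter. The step of a spot is the number of spots to the nearest FT spot, and FT spots were divided into inner spots, with FT neighbours all round, and the rest. Mbp in inner FT spots was at 35440.4 and 43922 CPM at P21, 20552 and 19619.9 CPM in the adult and 22403 and 24017 CPM in the aged brain. In gray matter spots next to the FT it was at 12852 and 12407 CPM at P21, 6732 and 7402 CPM in the adult and 7255 and 6915 CPM in the aged brain, so adult and aged sections overlapped there. At 6 or more steps it was at 5529 and 6696 CPM at P21, 2684 and 2763 CPM in the adult and 1687 and 1964 CPM in the aged brain, and both aged sections were below both adult ones. At 1 step, 3 of 8 genes were lower in both aged sections than in both adult sections and 3 were higher, whereas at 3, 4, 5 and 6 or more steps 8 of 8 were lower. These spots pool zones that differ in level and in their share at each distance. Within the CTX alone, 5 of 8 genes were lower in both aged sections at 3 steps, 6 at 4 steps, 6 at 5 steps and 8 at 6 or more. The share of all genes that separate in this way was not computed, so these counts have no background beside them. Summed neuron genes were also lower in both aged sections at every step, pooled and within the CTX. Their pooled log2 ratio of aged to adult was −0.25 at 1 step and −0.11 at 6 or more. For the 8 genes, the median log2 ratio of the mean aged to the mean adult level was 0.34 in inner FT spots, 0.05 at 1 step, −0.36 at 2 steps, −0.45 at 3 steps and −0.71 at 6 or more. With 2 sections against 2, an exact two-sided permutation test of a single level cannot go below a p of 0.333, so these levels are given without a test. When gray matter spots nearer than 3 steps were left out, an alternative chosen after seeing the data, 22 calls in the 6 regions were lower in aged vs. adult and 1 was higher.

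**Figure D4:**
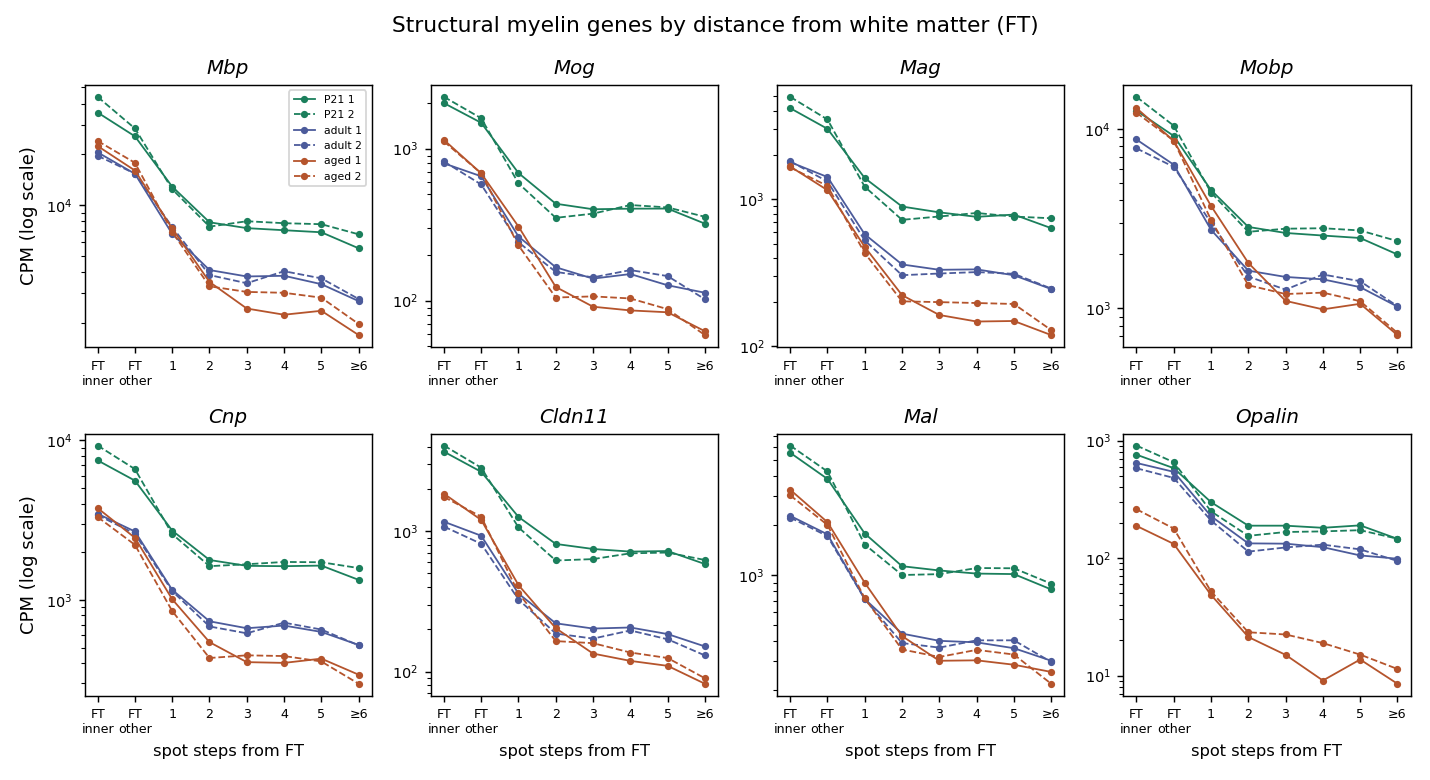
CPM (log scale) of each gene by distance from white matter. From left to right are inner FT spots, other FT spots and gray matter spots at 1 to 5 and at 6 or more spot steps from the FT, with 1 line per section. The aged lines start near or above the adult lines in the FT and run below them from 3 steps on, and the P21 lines lie on top except for Mobp in inner FT spots, while Opalin is lower in aged sections throughout.

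Genes of other cell types in the FT also differed between the age groups. Their counts stand beside 12.4% of all genes called higher and 14.4% lower in aged FT. In P21 FT the shares were 5.30% higher and 4.05% lower. The summed level of 10 neuron genes in the FT was 7038 and 6326 CPM at P21, 7699.6 and 7318 CPM in the adult and 3864 and 3820.3 CPM in the aged brain, so it was lower in aged FT than at any other age, while in the 5 gray matter zones together it was 11013 and 10513 CPM at P21, 12012 and 11916 CPM in the adult and 10992 and 11073 CPM in the aged brain. Of these 10 genes 6 were called lower in aged FT, led by Stmn2 (−1.70), Slc17a7 (−1.45) and Snap25 (−1.10) on the log2 scale, and 1, Gad1 (1.08), was called higher. Microglia genes, among them subunits of the complement starter C1q, summed to 661 and 704 CPM at P21, 846 and 944 CPM in the adult and 2829 and 2942 CPM in the aged brain in the FT, and 7 of 8 were called higher in aged FT, with log2 fold changes of 2.24 for C1qb and 1.90 for C1qc. Astrocyte genes summed to 3091 and 3252 CPM at P21, 3432 and 3415 CPM in the adult and 6072 and 6085 CPM in the aged brain, and 4 of 8 were called higher, led by Gfap (1.98), Aldh1l1 (0.81) and Fgfr3 (0.80). Of 5 endothelial genes tested, Flt1 rose (0.97) and Cldn5 fell (−1.01). In none of these lists was a gene at 0 in a section. The neuron, astrocyte, microglia and endothelial lists had 0 genes called in the FT in P21 vs. adult. The part of these cell types, and of the makeup of FT spots, in the levels of the myelin genes was not tested.

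Erythrocyte genes summed to 2121 and 1042 CPM at P21, 311 and 148 CPM in the adult and 279 and 355 CPM in the aged brain in the FT, and all 3 that were tested, Hbb-bt (3.05), Hbb-bs (2.96) and Hba-a2 (2.65), were called higher at P21. In aged FT Hbb-bt was called higher too (1.30). Their part in the P21 values was not tested. Peripheral myelin genes summed to at most 199 CPM in the FT. Pmp22, the only 1 of the 6 that passed the filters, fell at P21 (−1.24) and rose in aged FT (1.02).

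The other genes of the oligodendrocyte lineage were taken from 5 lists, and log2 fold changes in the FT are given with them. Their counts stand beside 5.30% of all genes called higher and 4.05% lower in P21 FT, and 12.4% higher and 14.4% lower in aged FT, so a count such as 1 of 9 in aged FT is near the background. The other membrane and cytoskeleton genes of myelin had 8 of 21 called higher and 3 lower, median 0.22, in P21 vs. adult. Sirt2, a deacetylase of the sheath (1.99), Tspan2, a tetraspanin (1.51), and Nfasc, a node and paranode adhesion protein (1.45), rose at P21, while Anln (−1.49), Evi2a (−0.97) and Hapln2, a link protein of the nodal matrix (−0.95), fell. In aged vs. adult this list had 6 of 21 called higher and 1 lower, median 0.24, with Hapln2 (1.74), Anln (1.72) and Cd9 (1.14) highest and Pllp (−0.73) lower. Anln and Hapln2 thus moved against the structural genes at P21.

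Metabolism and export genes had 4 of 12 called higher and 3 lower, median −0.15, at P21. Among those that rose, Ugt8a (1.71), Gal3st1 (1.55) and Cers2 (1.13) make the sphingolipids of myelin. Qdpr (−1.69), Car2, a carbonic anhydrase (−1.60), and Gstp1 (−1.10) fell. In aged FT the list had 3 of 12 called higher and 0 lower, median 0.21, which were Apod, an apolipoprotein (2.33), Cers2 (1.35) and Trf, transferrin (0.79). A summed level follows the most abundant genes of a list and need not hold for each gene. The summed level of this list in the FT was 6547 and 7409 CPM at P21, 8603 and 8730.1 CPM in the adult and 17156 and 16971 CPM in the aged brain, and it was highest in aged mice, where that of the 8 structural genes, 57486 and 68127 CPM at P21, 33190.4 and 32242 CPM in the adult and 39196 and 38533 CPM in the aged brain, was highest at P21. Transcription regulators had 4 of 9 called higher and 0 lower, median 0.46, at P21, led by Sox8 (1.24), Sox10 (1.06) and Olig1 (0.86), and 1 of 9 called higher and 0 lower, median 0.33, in aged FT, where the gene called was Nkx6-2 (0.66).

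Genes of committed and newly formed oligodendrocytes had 6 of 7 called higher and 0 lower, median 1.72, at P21. Gpr17, a receptor of premyelinating cells (2.47), Rras2 (1.88) and Itpr2 (1.81) led. In aged FT this list had 2 of 7 called higher and 3 lower, median −0.17, with Tmem163 (−1.50), Rras2 (−1.23) and Gpr17 (−0.91) lower and Itpr2 (0.89) and Bcas1 (0.72) higher. Precursor genes had 6 of 10 called higher and 0 lower, median 0.70, at P21, led by Neu4 (1.32), Vcan (1.25) and Matn4 (0.85), and 0 of 10 called higher and 0 lower, median 0.07, in aged FT. In whole aged sections 9 of 21 membrane and cytoskeleton genes, 6 of 12 metabolism genes, 4 of 9 regulators, 4 of 7 newly formed genes and 2 of 10 precursor genes were called lower, where 5.27% of all genes were. In these sections 2 membrane and cytoskeleton genes and 1 metabolism gene were called higher, where 3.72% of all genes were.

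**Figure D5:**
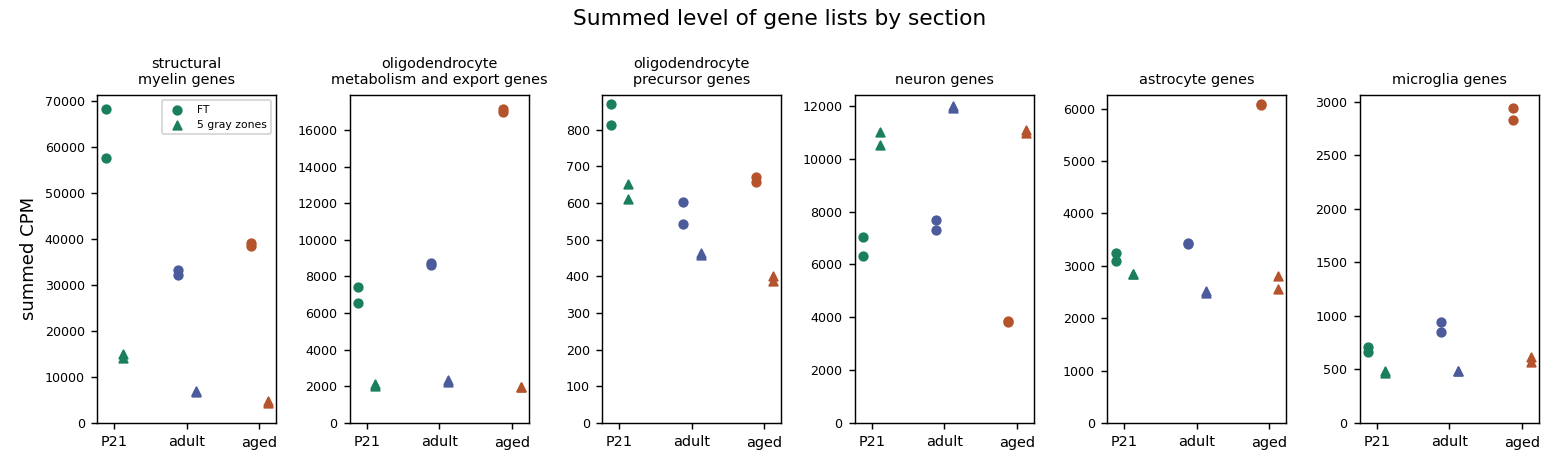
Summed CPM of 6 gene lists in the FT (circles) and in 5 gray matter zones together (triangles), each point a section, by age. The sum of the 8 structural myelin genes is highest in P21 FT and lowest in aged gray matter. In aged FT the sum of the neuron genes is lower than at the younger ages. The sums of the metabolism, astrocyte and microglia genes are higher there. A sum follows the most abundant genes of its list and need not hold for each gene. Of the metabolism genes, 3 of 12 were called higher and 0 lower in aged FT.

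Over the 36 sums of 6 sections and 6 regions, the profiles of the 8 genes were alike. Pearson's r of log2(CPM + 1) to their mean standardized profile was 0.997 for Mog and between 0.970 and 0.996 for the others except Opalin, for which it was 0.876. The pair least alike was Mobp and Opalin, with an r of 0.780. For each of the 8 the mean profile includes the gene itself, which favours a high r. The sums also share sections and the common step from gray to white matter, so these are descriptions. Among genes outside the 8, those most like the mean profile included Fa2h (0.996), Sox10 (0.992), Gltp (0.992), Pdlim2 (0.990), Tspan2 (0.988) and Enpp6 (0.986), of which Fa2h and Tspan2 belong to the panel that named the FT. In the FT their log2 fold changes in P21 vs. adult ran from 0.99 for Pdlim2 to 1.59 for Enpp6, and all 6 were called higher. In aged FT they ran from −0.13 for Fa2h to 0.31 for Gltp, and 0 were called, whereas in whole aged sections all 6 were called lower, from −1.18 for Pdlim2 to −0.65 for Gltp. Of all genes, 5.30% were called higher in P21 FT and 5.27% lower in whole aged sections. In aged FT, 12.4% were called higher and 14.4% lower, so 0 of 6 there is near the background. The 6 genes were picked for their likeness to the 8 over the same 36 sums, which include the sections of every age. A similar change with age was therefore favoured by the way they were picked, and their calls are descriptions too.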

How the data were processed

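The authors made the deposited counts, whole numbers of UMIs per gene and spot without normalization, with Space Ranger from a probe panel and the mm10 reference. Per the file headers this was version 2.0.0 for P21 and adult and 3.1.1 for aged sections, while the submitters' processing notes name 2.1.0. The deposited Moran's I score per gene was used as given.

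Spots needed at least 250 genes and 500 UMIs. Counts were log-normalized, standardized per section and reduced to 10 principal components of 3000 variable genes, with 112 genes of the lists kept out. Leiden clustering (20 neighbours) used 0.25, the lowest resolution at which all 8 regions of the study were named, a rule set after clusters, but not levels of the genes, had been seen. A cluster took the name of the marker panel with a mean standardized value of at least 0.2, a lead of 0.2 and 3 raised genes.

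UMIs were summed per section and region, with sections as replicates. edgeR 4.0.16 (TMM, glmQLFit, glmQLFTest) fitted the 6 sums of an area with age as the only term. A gene entered the tests if it passed filterByExpr and had UMIs in 10% or more of all spots and in over 10% of spots of the area in either age. Adjusted p are Benjamini-Hochberg values over all genes tested. Standard errors are the fold change divided by the square root of F. The region-by-age model had sections as a block over 36 sums. DESeq2 1.42.0 was an alternative. The edgeR fits were tested on simulated data.

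Members and lists were chosen with earlier results of these data known, so no list is independent evidence. Named were every member, up to 3 genes per list, direction and comparison called in the FT, the genes most like the mean profile, and the 3 leading genes of clusters. The lists cover myelin and oligodendrocyte membrane or cytoskeleton, metabolism, regulator, newly formed, precursor, peripheral myelin, neuron, astrocyte, microglia, endothelial and erythrocyte genes. Values of 2 genes are not reported here. Images were not analysed here.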

Additional observations from a re-analysis of the deposited data

Results flagged for a closer look

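For all 8 genes the change between age groups differed between regions by a test of the difference itself. This tested the 5 region-by-age terms of a model with each section as a block. By the same test, 48.2% of 11338 genes passed in aged vs. adult and 13.9% in P21 vs. adult. In aged vs. adult, age cannot be told apart from source of the mice, slide version, probes and software. In aged vs. adult the adjusted p of edgeR's quasi-likelihood test was 5.15e-06 for Mbp, 4.41e-08 for Mog, 9.94e-05 for Mag, 3.80e-07 for Mobp, 2.67e-06 for Cnp, 4.74e-07 for Cldn11, 4.93e-06 for Mal and 4.02e-08 for Opalin. In P21 vs. adult it was 0.016 for Mbp, 0.00593 for Mog, 0.0147 for Mag, 0.00653 for Mobp, 0.0164 for Cnp, 0.0214 for Cldn11, 0.0108 for Mal and 0.0298 for Opalin. The aged differences share a direction, with the FT above each zone, while of the single contrasts of P21 none passed, with adjusted p of 0.0508 to 0.143 against the HY and 0.0686 to 0.431 against the HP. The P21 terms passed for 0 of 8 genes with each section clustered alone, where 570 of 11338 genes passed. Fewer of the 8 also passed without any 1 of the P21 or adult sections, as did fewer of all genes. Groups of 2 sections are too small to look for a section that stands apart from its group.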

How the results depend on the processing

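In P21 vs. adult, 7 of 8 genes were called in whole sections under every alternative run (TMM factors left out, DESeq2, looser filters or none, the 8 genes left out of library sizes, thinning to the lowest total, and each section left out in turn), and 0 of 48 pairs of gene and region were called lower. Of the 42 pairs called higher, 36 were kept with each section clustered alone, and the count was 38 to 42 with a section left out. The count of genes called in whole aged sections changed in some fits with a section left out. Counts over all genes in those fits are not given beside it. Higher calls of gene and region in aged vs. adult, 1 in the main setting, were 0 without a filter on low counts, 2 with the 8 genes left out of library sizes, 2 after thinning, 3 with inner spots only and 2 with each section clustered alone. They also changed in some fits with a section left out. Counts over all gene and region tests under these alternatives are not given beside them. The cause was not tested. Genes with region-by-age terms in P21 vs. adult fell from 8 to 0 with each section clustered alone, where 570 of 11338 genes passed. They fell to 4 without gray matter spots nearer than 3 steps to the FT, where 1151 passed. Without a P21 or adult section they fell too, among the 8 and over all genes. In aged FT, Mag turned to 0.041 with each section clustered alone, and Cnp to 0.15 with inner spots, 0.12 with each section clustered alone and −0.19 to 0.071 with a section left out, 0.071 being that without aged replicate 2. Genes called over all features in whole aged sections were 421 higher and 596 lower, and 5289 and 914 without a filter.

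Whether replicate numbers pair the sections cannot be settled with 2 sections per age. Deviations of sections with the same number correlated at 0.15 between P21 and adult, −0.14 between P21 and aged and −0.41 between adult and aged. With the number as a replicate block, counts were 7 and 5 genes in whole sections, 42 higher calls in P21 vs. adult, and 1 higher and 23 lower calls in aged vs. adult, and with crossed numbers, chosen after seeing the data, 5 genes in whole aged sections. In simulated counts, 95% of 100 genes changed 2 times were recovered in the FT in aged vs. adult, and 3 unchanged genes were called. The region-by-age model recovered fewer, 76% of 200 genes changed 2 times in aged FT alone, and 9 unchanged genes passed. All simulated counts were drawn from adult means, with few genes changed, equally up and down. The region-by-age run used a spread set in advance. In the data 1376 genes were called higher and 1592 lower in aged FT, so the simulated rates need not hold there.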

Other observations

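Clusters that entered no comparison also held these transcripts. In the reticular thalamus (234 spots, led by Six3, Spp1 and Pvalb), which lies between thalamus and the internal capsule, Mbp was at 16682 and 20377 CPM at P21, 9514 and 9004 CPM in the adult and 5798 and 7142 CPM in the aged brain, and Opalin at 407 and 403 CPM at P21, 356 and 248 CPM in the adult and 33.4 and 55 CPM in the aged brain. In the ventricular system (208 spots, led by Ttr, Ecrg4 and Clic6), Mbp was at 9429 and 8326 CPM at P21, 6240.1 and 7661 CPM in the adult and 7792 and 10037 CPM in the aged brain, and Mobp at 3362 and 2753 CPM at P21, 2506 and 3051 CPM in the adult and 4317 and 4858 CPM in the aged brain. In meningeal and vessel spots (1037 spots, led by Fmod, Slc22a6 and Ptgds), Mbp was at 5574 and 6254 CPM at P21, 2798 and 3029.7 CPM in the adult and 680.0 and 1042 CPM in the aged brain, and Opalin at 132 and 151 CPM at P21, 104 and 104 CPM in the adult and 0.771 and 6.79 CPM in the aged brain, where the aged values rest on 1 UMI and 10 UMIs. In the medial habenula (226 spots, led by Gm5741, Gpr151 and Chrna3), where 1 adult section gave 3 spots, Mbp was at 8284 and 9089.8 CPM at P21, 2622 and 4032 CPM in the adult and 2810.3 and 3036 CPM in the aged brain. The unnamed cluster (1975 spots, led by Lypd1, Cyp26b1 and Kcng1) had Mbp at 4078 and 3677 CPM at P21, 1519.8 and 1099 CPM in the adult and 718 and 744 CPM in the aged brain. These values were not tested.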
